A study of Sus scrofa domesticus with 150 samples.

Results

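The genes described here mark T lymphocytes and natural killer (NK) cells. They were chosen by name as marker genes of these cells, by a rule that uses no measured value, though by then earlier results of these data were known. The names were CD3D, CD3E, CD2, CD4, CD8A, GZMA, GZMB, PRF1, NKG7 and IL7R. Of these 10 symbols, 9 were found among the 30461 rows of the deposited gene tables, and no row carried the name GZMB. GZMA matched 2 rows, so the genes came to 10 rows. The 2 granzyme A rows are called GZMA-59390 and GZMA-59558 here, after the last digits of their identifiers, ENSSSCG00025059390 and ENSSSCG00025059558. All 10 rows passed the filter on low counts, which kept 17916 genes.

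The study followed healing of full-thickness circular excisional wounds on the backs of 6 female Yorkshire-mix domestic pigs, each with 12 wounds. The wounds lay under Telfa Clear and Tegaderm dressings and received no other treatment apart from an antibiotic ointment on the biopsy sites. Poly-A RNA sequencing was made of 150 samples in 29 states. Day 0 was the whole piece of skin excised at wounding, 1 sample from each of the 6 animals, and the other 28 states were small biopsies from the wound edge and the wound center on 14 days. On days 1, 3, 5, 7, 11, 15 and 21 the samples came from animals 1323, 1324 and 1325, and on days 2, 4, 6, 9, 13, 16 and 19 from animals 1326, 1327 and 1328. On 10 of the days 2 wounds of each of 3 animals were sampled (6 replicates per state), and on days 15, 16, 19 and 21 1 wound of each (3 replicates). Replicates of a state are therefore wounds nested in 3 animals, and a p-value over them measures the spread between wounds more than that between animals. The kind of sample, excised skin or biopsy, cannot be told apart from the wounding in any comparison with day 0. Neighbouring days come from different animals, so steps in time are described within the same 3 animals.

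T cells recognise antigen through the T cell receptor, which signals through the CD3 chains. CD4 and CD8 are co-receptors that divide T cells broadly into helper and cytotoxic cells, and CD2 is an adhesion and costimulatory receptor of T and NK cells. Cytotoxic T cells and NK cells kill target cells by releasing perforin, which opens the membrane, and granzymes, proteases that enter through it. Interleukin 7, read by IL7R, keeps resting T cells alive. The genes do not mark all T cells alike: porcine blood is known for its many gamma delta T cells, some of which lack CD2, CD4 and CD8. In the pig, CD4 is also found on plasmacytoid dendritic cells. In bulk tissue, fewer cells of a type and less RNA per cell cannot be told apart.

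CD3D and CD3E lie next to each other on contig LUXX01015702.1, at 2022600 to 2029692 on the minus strand and 2004961 to 2019445 on the plus strand. The granzyme A rows are neighbours on the minus strand of contig LUXX01054184.1, at 2330313 to 2338683 and 2350080 to 2360214. Both were matched to the same protein name. How alike their sequences are was not examined, and if they share reads, counting could have divided these between the rows, so their values are uncertain as values of single genes. For 5 of the 10 rows (CD3E, CD2, CD4 and both granzyme A rows) the symbol came from the protein match in the deposited annotation, and for the other rows from the gene name.

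Library totals ranged from 13133379 to 24895572 counts, so that 3 counts, taken as the floor for detection, stood for 0.121 to 0.228 CPM, a gene's counts scaled to a common library total. Levels are given as log2(1 + CPM) and called log2 levels. Before wounding several genes were close to this floor. GZMA-59558 had 3 counts or fewer in 5 of the 6 day 0 libraries, CD4 in 2, and CD8A and GZMA-59390 in 1 each. The other rows were above 3 counts in all 150 libraries. A set of 6 libraries, taken from an earlier analysis of these data, had a median correlation to their own state of 0.898 to 0.941, against a median of 0.974 over all libraries. The lowest value among the other libraries was 0.936, so the set is not separated from them by this measure. They are called the libraries that stood apart. Among them, the library labelled day 3 center 4 had a log2 level of KRT10, a keratin of differentiating epidermis, of 13.4, and the library labelled day 3 edge 6 had 3.3. The median was 5.76 over the other center libraries and 13.9 over the other edge libraries, so both went against their labels. Center libraries of day 21 had KRT10 at 13.9 to 14.4.

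CD3D and CD3E, 2 chains of the CD3 complex, were low in day 0 skin and higher in every wound state. The log2 level of CD3E on day 0 ran from 0.84 over a median of 1.22 to 1.50. On day 1 it was 3.16, 4.01 and 4.87 (lowest, median and highest) in the wound center and 2.80, 3.51 and 4.43 at the edge, so no wound sample of day 1 overlapped with day 0. The rise over day 0 was 3.45 ± 0.48 (log2 fold change ± SE, n = 6 and 6, edgeR quasi-likelihood test, adjusted p = 5.22e-10) in the center and 2.95 ± 0.47 (adjusted p = 1.46e-07) at the edge. The highest center mean of CD3E was that of day 11, 4.80 ± 1.03 (SD, n = 6), followed by day 13 with 4.54 ± 1.12 and day 15 with 4.51 ± 0.89 (SD, n = 3). These 3 means differed by less than their SD. The lowest was that of day 19, with 2.45, 3.10 and 3.41 as lowest, median and highest value.

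The high means of days 11 and 13 held 1 library each that was far above its replicates. On day 11 the center of wound C in animal 1324 (replicate 3) had a CD3E log2 level of 6.73 and a CD3D level of 6.64, where the state medians were 4.39 and 4.28. On day 13 the center of wound C in animal 1327 (replicate 3) had 6.50 and 6.43, where the medians were 4.43 and 4.69. CD3D otherwise followed CD3E, with the highest center means on day 13 (4.75 ± 0.91) and day 11 (4.71 ± 1.01) and the lowest on day 19 (3.04 ± 0.12, n = 3). At the wound edge both genes had their highest mean on day 3, 3.85 ± 0.73 for CD3D and 3.56 ± 0.72 for CD3E, and their lowest on day 16. For CD3E the mean of day 1, 3.53 ± 0.55, and for CD3D that of day 6, 3.59 ± 0.59, differed from it by less than the SD. The day 3 edge also includes the library labelled day 3 edge 6, whose KRT10 level went against its label.

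**Figure D1:**
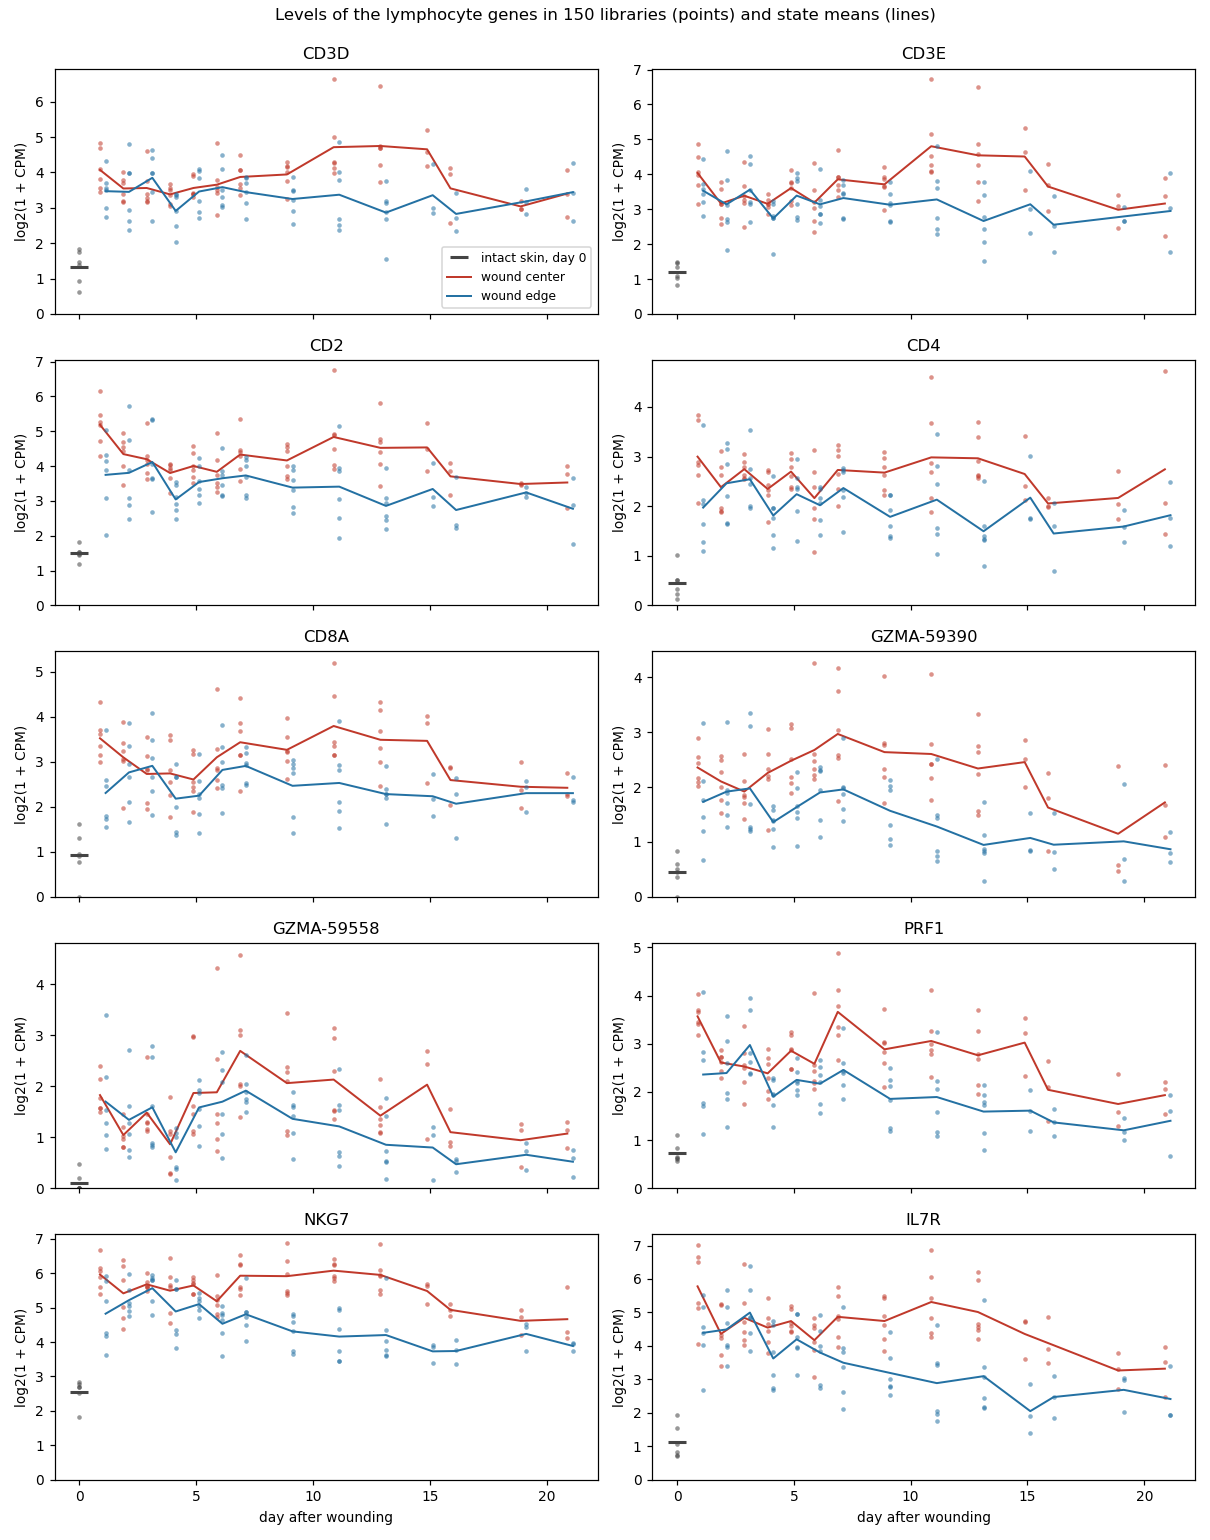
Log2(1 + CPM) of each of the 10 rows (vertical axes) against the day after wounding (horizontal axes), with a point for each of the 150 libraries, lines through the state means of wound center (red) and wound edge (blue), and a dash for the mean of intact skin on day 0 (grey). Day 0 lies below the state means of all wound states in each panel, the center lies above the edge in most states after day 3, and single center libraries of days 11 and 13 stand high in CD3D and CD3E.

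CD2 and IL7R rose early in the wound center. CD2 had log2 levels of 1.19, 1.51 and 1.83 (lowest, median and highest) on day 0 and of 4.29, 5.24 and 6.16 in the day 1 center, its highest state mean (5.19 ± 0.64). The next highest was the day 11 center with 4.84 ± 1.03. IL7R, the receptor chain for interleukin 7, had 0.71, 0.95 and 1.93 on day 0 and 4.05, 5.90 and 7.02 in the day 1 center. That was a change of 5.55 ± 0.63 on the log2 scale (46.8-fold, adjusted p = 2.76e-13), the largest among the members on that day. The day 11 center followed with 5.31 ± 1.02. By days 19 and 21 IL7R in the center was down to means of 3.27 ± 0.54 and 3.32 ± 0.76 (n = 3 each), still above the highest day 0 sample in every library.

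Among the co-receptors, CD4 ran from 0.13 over 0.42 to 1.02 on day 0 and from 2.06 over 2.86 to 3.84 in the day 1 center, where the change was 4.10 ± 0.53 (adjusted p = 3.18e-11). Its center means then stayed between 2.06 (day 16) and 3.00 (day 1). In the day 21 center the 3 animals had 2.06, 4.72 and 1.45, so the state mean of 2.74 ± 1.74 rested on animal 1324. CD8A ran from 0 over 0.93 to 1.61 on day 0 and had its highest center mean on day 11, 3.79 ± 0.84, with 3.14, 3.40 and 5.19 as lowest, median and highest value. It was 3.52 ± 0.48 in the day 1 center and 2.42 ± 0.29 (n = 3) in the day 21 center, its lowest.

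In the wound center perforin and both granzyme A rows had their highest means on day 7. PRF1, perforin, had log2 levels of 0.56, 0.63 and 1.10 on day 0. In the day 1 center it was 3.17, 3.55 and 4.02, in the day 5 center 2.47, 2.88 and 3.25, and in the day 7 center 2.66, 3.57 and 4.88. The state means of days 7 and 1, 3.66 ± 0.78 and 3.57 ± 0.29, differed by less than their SD. So did those of GZMA-59390 on days 7 and 6, 2.97 ± 0.88 and 2.67 ± 0.79. For GZMA-59558 the means of days 7 and 11, 2.69 ± 1.13 and 2.13 ± 0.78, were likewise not separated by their SD. GZMA-59390 was at 0, 0.48 and 0.83 on day 0 and at 1.74, 2.81 and 4.16 in the day 7 center, a change of 4.38 ± 0.61 (adjusted p = 4.08e-10). GZMA-59558 was at 0, 0 and 0.47 on day 0 and at 1.41, 2.52 and 4.58 in the day 7 center. Its log2 fold change of 6.39 rests on a day 0 group at the floor and depends on the prior count of the fit. In the day 6 center GZMA-59390 reached 4.26 in 1 library whose replicates lay at 2.15 to 2.61.

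NKG7, a granule membrane protein of NK and cytotoxic T cells, was at 1.81, 2.69 and 2.84 on day 0 and at 5.76, 6.07 and 6.41 in the day 11 center. The center means stayed between 5.18 and 6.07 from day 1 to day 13, and that of day 19 was 4.62 ± 0.38 (n = 3). No step between successive days of the same animals was called for NKG7 (lowest adjusted p = 0.0785). Per length, as the deposited FPKM, NKG7 was at 58.5 ± 9.25 in the day 11 center, where IL7R was at 12.6 ± 8.93, CD3E at 11.1 ± 10.1, CD3D at 7.97 ± 7.20, GZMA-59390 at 6.76 ± 4.87, CD2 at 5.24 ± 4.72, CD4 at 2.61 ± 2.11, GZMA-59558 at 2.48 ± 1.67, CD8A at 2.40 ± 1.59 and PRF1 at 1.67 ± 0.79. NKG7 is thus set apart from the other rows by more than their SD, while the rows from IL7R to CD2 in this order were not separated from their neighbours. On day 0 NKG7 was at 4.36 ± 1.21 FPKM and no other row had a mean above 0.448.

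Against day 0 skin, all 140 member tests of the wound center (10 rows in 14 states) were called higher, with log2 fold changes of 2.07 to 6.39. Among all genes, 28.2% of the center tests were called higher. At the wound edge 133 of the 140 member tests were called higher, where 19.9% of all edge tests were. No member test was called lower, where 27.5% of all center tests and 14.6% of all edge tests were. The 7 tests that missed the threshold were all in late edge states of 3 replicates. GZMA-59390 missed it on days 15 (1.59 ± 0.67, adjusted p = 0.128), 16 (1.52 ± 0.68, adjusted p = 0.107) and 21 (1.28 ± 0.69, adjusted p = 0.187). GZMA-59558 missed it on days 16 (2.34 ± 1.00, adjusted p = 0.086) and 21 (2.49 ± 0.97, adjusted p = 0.0566). The others were IL7R on day 15 (1.48 ± 0.66, adjusted p = 0.154) and PRF1 on day 19 (1.24 ± 0.52, adjusted p = 0.0585). All 28 contrasts share the 6 day 0 samples and are not independent of each other. Without the 6 libraries that stood apart 273 of the 280 tests were called, as in the full set, and with 1 value per animal 274. Over all genes these 2 fits called 46.6% and 44.7% of the tests in either direction, and the full set 45.1%.

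**Figure D2:**
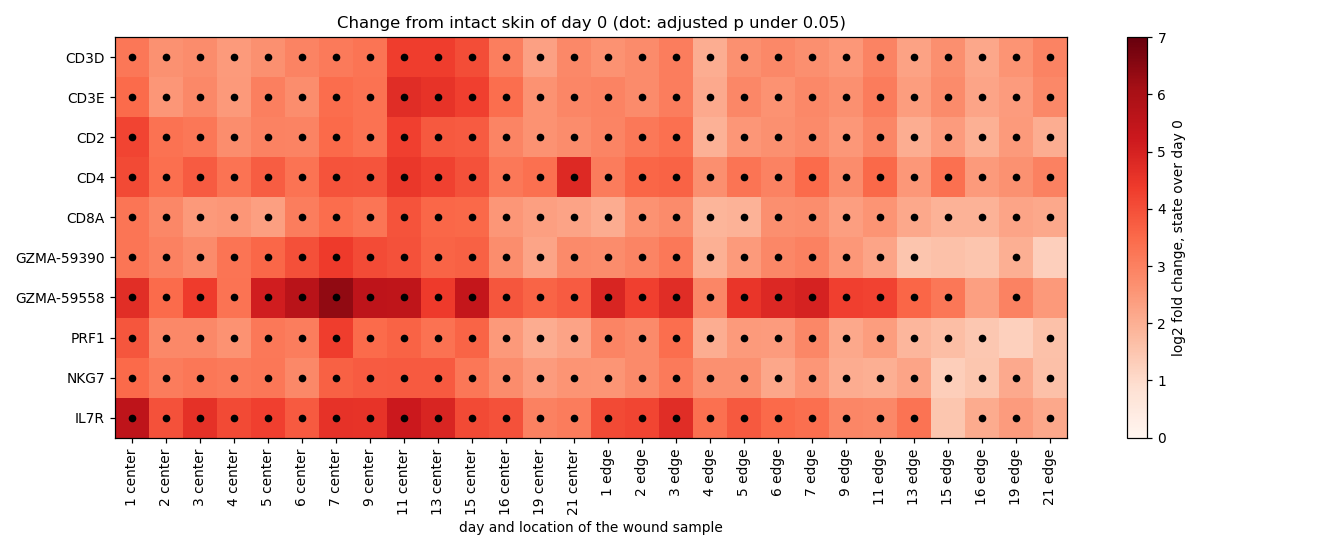
Log2 fold change of each row (vertical) in each wound state (horizontal, center states left and edge states right) over day 0, as a red scale, with a dot where the adjusted p was under 0.05. The 140 center fields all carry a dot, the 7 fields without one are late edge states, and the lowest changes lie at the edge from day 15 on.

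In the day 21 center all 10 rows were still called higher than intact skin, and at the day 21 edge all but both granzyme A rows. In the center the changes over day 0 ran from 2.25 ± 0.50 for PRF1 (adjusted p = 0.000147) to 4.79 ± 0.58 for CD4, the value that rests on 1 animal. CD3E was at 2.90 ± 0.52 (adjusted p = 3.16e-06), with log2 levels of 3.37, 3.88 and 2.24 in animals 1323, 1324 and 1325. In this state 19.2% of all genes were called higher than day 0, and at the day 21 edge 13.0% were.

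Between successive sampled days of the same animals, none of the 240 member tests was called by edgeR's quasi-likelihood test, where 3.93% of all tests were in either direction. An unadjusted p under 0.05 was reached by 21. The lowest adjusted p was that of CD3D in the center from day 7 to day 11, a difference of 1.19 ± 0.40 (adjusted p = 0.0622), followed by CD3E with 1.29 ± 0.43 (adjusted p = 0.0623). From day 5 to day 7 PRF1 in the center differed by 1.16 ± 0.40 (adjusted p = 0.0843), and from day 1 to day 3 by -1.04 ± 0.40 (adjusted p = 0.0902). DESeq2 called 5 of the 240 tests higher on the later day and none lower, where it called 5.01% of all tests in either direction. The order of the state means within the wound is therefore a description.

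The location in the wound was compared within each day, edge against center. Of the 140 member tests, 37 were called higher in the center and none higher at the edge. Over all genes 11.0% of these tests were called higher in the center and 12.5% higher at the edge. Since edge and center samples came from the same wounds, the fit with the wound as replicate block applies as well, and it called 57 member tests higher in the center and none at the edge. With 1 value per animal 18 were called. Over all genes the fit with the wound block called 26.2% of its tests in either direction, and that with 1 value per animal 18.3%.

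The calls were made on days 1, 4, 5, 7, 9, 11, 13, 15 and 16. On day 1, with 22.6% of all genes called higher in the center, CD2 (-1.28 ± 0.47, adjusted p = 0.0415), CD8A (-1.17 ± 0.44, adjusted p = 0.0451) and IL7R (-1.46 ± 0.55, adjusted p = 0.0452) were lower at the edge. On day 4, with 11.4%, CD2 (-0.76 ± 0.21, adjusted p = 0.0187) and GZMA-59390 (-1.30 ± 0.35, adjusted p = 0.0138) were called. On days 5 (16.8% of all genes) and 7 (17.1%) the 3 calls were GZMA-59390, PRF1 and NKG7, all of them cytotoxic genes. GZMA-59558, the other granzyme A row, was called on none of the 14 days (lowest adjusted p = 0.0629). PRF1 was lower at the edge by -0.73 ± 0.21 on day 5 (adjusted p = 0.0171) and by -1.48 ± 0.39 on day 7 (adjusted p = 0.0101). Day 9 had 7 calls (14.3%), with CD3D, CD2, CD4 and IL7R beside the same 3 cytotoxic rows. Of the CD3 chains, CD3D was called on days 9 and 13, CD3E on days 11 and 13. The most members were called on day 13, 8 of the 10 rows, where 11.8% of all genes were called higher in the center.

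On day 13 CD3D was at 3.73, 4.69 and 6.43 (lowest, median and highest) in the center and at 1.56, 3.00 and 3.77 at the edge. It was lower at the edge in 6 of 6 wounds, by -2.05 ± 0.47 in the fit (adjusted p = 0.00647). CD4 on this day was at 2.57, 2.77 and 3.70 in the center and at 0.80, 1.37 and 2.52 at the edge, which did not overlap (-1.73 ± 0.38, adjusted p = 0.00504). GZMA-59390 differed by -2.07 ± 0.49 (adjusted p = 0.00765). IL7R, with -1.62 ± 0.63 (adjusted p = 0.0727), and GZMA-59558, with -0.82 ± 0.55 (adjusted p = 0.302), missed the threshold.

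NKG7 was the member called most often, on 7 days, together with GZMA-59390. On day 11 NKG7 was at 5.76, 6.07 and 6.41 in the center and at 3.45, 4.06 and 5.00 at the edge, without overlap (-1.79 ± 0.27, adjusted p = 0.000359). IL7R was at 4.28, 5.14 and 6.87 in the center and at 1.77, 2.74 and 4.62 at the edge on that day (-2.43 ± 0.61, adjusted p = 0.00739), and 22.9% of all genes were called higher in the center. On day 15 the center of animals 1323, 1324 and 1325 had IL7R at 4.71, 3.61 and 4.75, and the edge of the same wounds at 2.85, 1.40 and 1.91 (-2.58 ± 0.61, adjusted p = 0.0382). GZMA-59390, PRF1 and NKG7 were called on that day too, where 9.81% of all genes were higher in the center. On day 16, with 5.87%, NKG7 was the 1 row called (-1.23 ± 0.20, adjusted p = 0.025).

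The calls of day 11 partly rested on the center library of animal 1324. Without it, CD3E (-0.95 ± 0.45, adjusted p = 0.109), CD8A (-0.95 ± 0.46, adjusted p = 0.121), PRF1 (-0.94 ± 0.45, adjusted p = 0.115) and GZMA-59390 (-1.24 ± 0.49, adjusted p = 0.0604) were no longer called, while NKG7 and IL7R were. Leaving out the high library of day 13 changed none of the 37 calls.

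No member was called on days 2, 3, 6, 19 and 21. On day 2, where 17.7% of all genes were called higher in the center, the member differences ran from -0.28 for NKG7 to 0.83 for GZMA-59558. On day 6 it was 3.92%. On days 3 and 19 no gene at all passed the threshold (0.0%), and on day 21 0.0684% did, none of them higher in the center. On day 3 8 of the 10 rows had a higher fitted mean at the edge, from 0.12 for CD2 to 0.57 for PRF1, none of them called (lowest adjusted p = 0.531). With the libraries that stood apart left out, 18.1% of the genes were called on day 3, still without a member. PRF1 then differed by 0.97 ± 0.42 (adjusted p = 0.139) and CD3D by 0.73 ± 0.36 (adjusted p = 0.197).

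**Figure D3:**
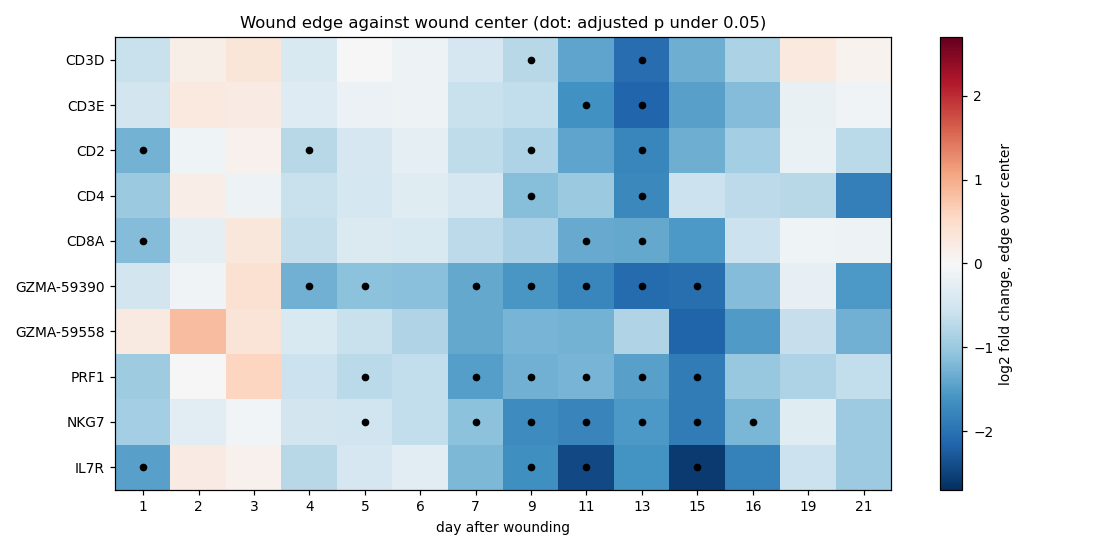
Fitted log2 fold change of wound edge over wound center for each row (vertical) on each day (horizontal), blue where the center was higher and red where the edge was higher, with a dot where the adjusted p was under 0.05. The 37 dots all lie on blue fields, on day 1 and, except for day 6, from day 4 to day 16, with the most on day 13 (8 rows).

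Averaged over the 14 days, all 10 rows were called higher in the center, where 33.8% of all genes were. The differences were -0.51 ± 0.12 for CD3D (adjusted p = 9.52e-05), -0.61 ± 0.13 for CD3E (adjusted p = 1.60e-05), -0.76 ± 0.13 for CD2 (adjusted p = 1.66e-07), -0.75 ± 0.14 for CD4 (adjusted p = 6.42e-07) and -0.66 ± 0.14 for CD8A (adjusted p = 8.66e-06). For the cytotoxic rows they were -1.11 ± 0.16 for GZMA-59390 (adjusted p = 1.16e-09), -0.77 ± 0.20 for GZMA-59558 (adjusted p = 0.000386), -0.88 ± 0.12 for PRF1 (adjusted p = 4.09e-10) and -0.97 ± 0.10 for NKG7 (adjusted p = 3.07e-16). IL7R was lower at the edge by -1.11 ± 0.16 (adjusted p = 6.93e-10).

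The direction was the same in each animal. Taken per animal as the mean of edge minus center over its 12 wounds, each of the 10 rows was lower at the edge in 6 of 6 animals. For CD3E the animals ranged from -0.72 to -0.52 (mean -0.58 ± 0.07, SD, n = 6) and for IL7R from -1.31 to -0.93 (mean -1.08 ± 0.15). CD8A and GZMA-59558 varied more, from -0.96 to -0.20 and from -0.83 to -0.04. Over the 72 wounds, NKG7 was lower at the edge in 64, GZMA-59390 and IL7R in 61, CD8A in 60, CD2, CD4 and PRF1 in 59, GZMA-59558 in 52, CD3E in 51 and CD3D in 49.

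**Figure D4:**
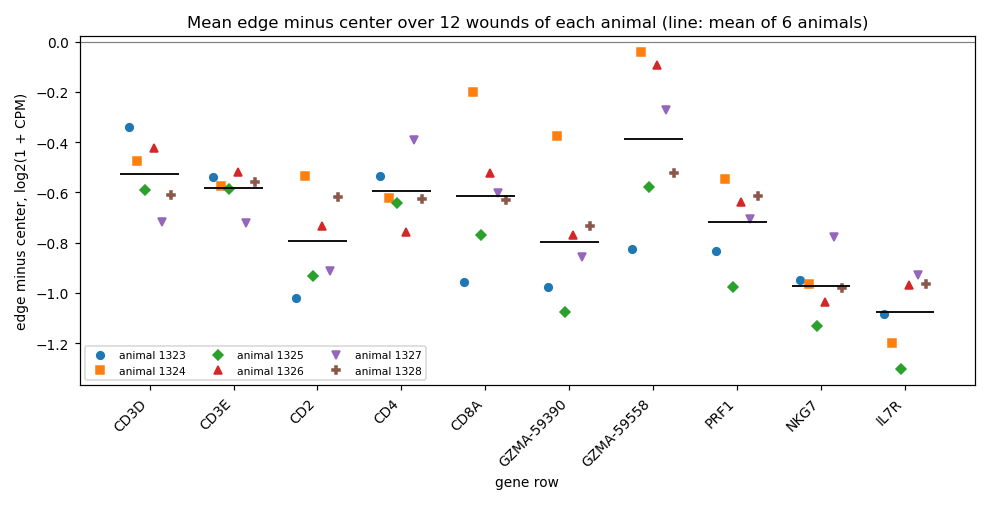
Mean difference of wound edge minus wound center in log2(1 + CPM) (vertical axis) over the 12 wounds of each of 6 animals (symbols), for each row (horizontal axis), with a line at the mean of the animals. All 60 symbols lie below 0, and those of CD3E lie closest together, from -0.72 to -0.52.

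Whether the difference between edge and center changed over the days was tested with the day by location term. It was called for NKG7 (adjusted p = 0.00464), CD3D (adjusted p = 0.00785), CD3E (adjusted p = 0.0178), IL7R (adjusted p = 0.0263) and PRF1 (adjusted p = 0.0470), and by the same test over all genes for 30.8%. It was not called for GZMA-59390 (adjusted p = 0.142), CD2 (adjusted p = 0.235), GZMA-59558 (adjusted p = 0.367), CD4 (adjusted p = 0.371) and CD8A (adjusted p = 0.401). Without the 2 center libraries high in CD3, a choice made after seeing the data, NKG7 alone was called (adjusted p = 0.00468), and CD3D and CD3E were at adjusted p = 0.0789 and 0.185. With 1 value per animal it was likewise NKG7 alone (adjusted p = 0.00205). NKG7 itself was not called without replicate 3 (adjusted p = 0.0603) or without replicate 6 (adjusted p = 0.0555). Over all genes the term was called for 30.0% without the 2 center libraries and for 23.5% with 1 value per animal. It was 16.8% without replicate 3 and 25.4% without replicate 6.

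Animals differed in level from those sampled on the same days. Apart from day 0, each state mean comes from 3 animals, so animals of different days cannot be ranked together. Relative to the state means, CD3E was lower in animal 1325 (by -0.41 on the mean log2 level) and higher in 1324 (0.26). Among the animals of the other days it was lower in 1326 (-0.31) and higher in 1327 (0.31). The other members except NKG7 and IL7R had 1325 and 1326 on the low side too. IL7R ranged from -0.61 in animal 1325 to 0.45 in animal 1324. Among the animals of the other days it was lowest in 1328 (-0.39), with 1326 at -0.03 and 1327 at 0.41. Over the 72 wounds the deviations of edge and center from their state means had correlations from 0.28 for NKG7 to 0.54 for IL7R. The level of the animal was not removed, so the part of the wound and that of the animal cannot be told apart here.

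Within states, the members varied together from library to library to different degrees. The correlations are over the 150 libraries after removal of the state means, share the libraries and their depth, and are given as a description. CD3D and CD3E had a Pearson r of 0.92, and CD2 had 0.87 with each of them. PRF1 had 0.85 with GZMA-59390, 0.84 with CD8A and 0.75 with GZMA-59558. CD2 was nearly as close to these rows, with 0.81 to PRF1 and 0.79 to CD8A, and CD3D had 0.73 with PRF1, so the rows do not divide into separate groups. NKG7 had 0.31 to 0.59 with the other members, the highest being that with IL7R. CD4 had 0.28 to 0.61, the highest being that with CD2.

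**Figure D5:**
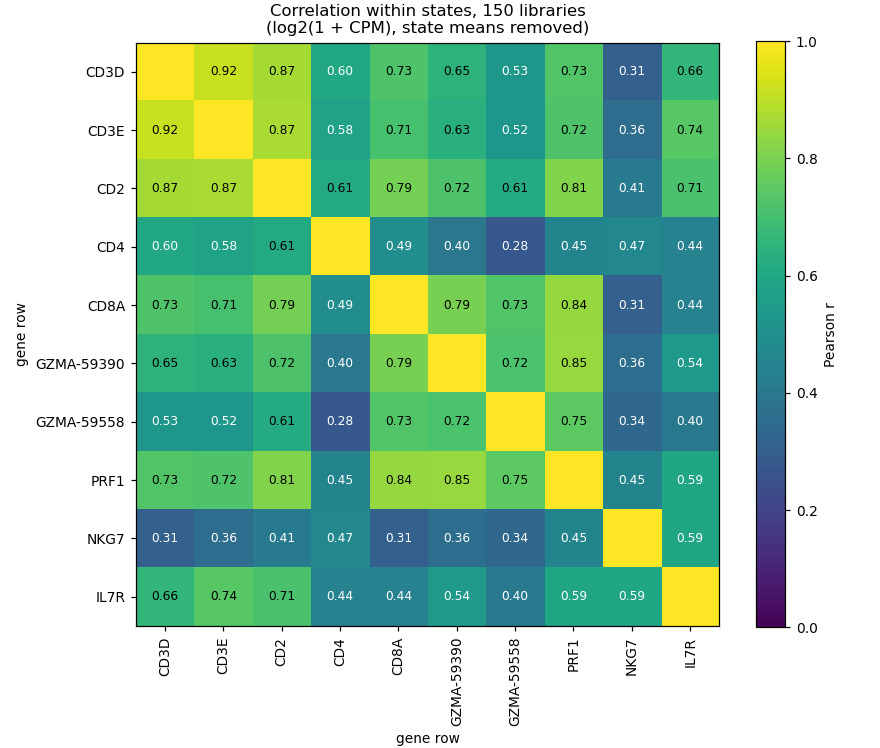
Pearson correlation between each pair of rows over 150 libraries, computed on log2(1 + CPM) after removal of the state means and printed in each field of the color scale. CD3D, CD3E and CD2 have the highest values among each other (0.87 to 0.92), PRF1, GZMA-59390 and CD8A have 0.79 to 0.85, CD2 has 0.81 with PRF1 and 0.79 with CD8A, and NKG7 has 0.31 to 0.59 with the other rows.

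Across the 29 state means the genes most like each member in pattern were listed from all genes with a symbol, as a description with states that share day 0 and the wounding. CD3D was most like CD3E (Pearson r = 0.971), CD5 (0.970) and TRDC, the constant region of the T cell receptor delta chain (0.970). CD3E was most like CD6 (0.976), CD5 (0.975) and BLK (0.974). For CD8A these were SH2D1A (0.950), SEPTIN1 (0.947) and LCK (0.946), for CD2 IKZF1 (0.964), CORO1A (0.961) and SASH3 (0.960), and for CD4 LPXN (0.928), CD2 (0.921) and IRF8 (0.914). GZMA-59558 was most like GZMH, another granzyme (0.949), with the next gene, ARPC5, at 0.887, and GZMA-59390 was most like ICAM2 (0.940), SLC38A6 (0.938) and NFKB2 (0.937). PRF1 was most like NFKBIE (0.956), LRTOMT (0.954) and GIMAP1 (0.952). The genes nearest to NKG7 were MYO1F (0.986), ITGAX (0.986) and ITGB2 (0.985), of which the integrin chains ITGAX and ITGB2 are well known from myeloid cells. IL7R was most like FCER1G (0.977), GIMAP1 (0.975) and PTPRC (0.975), the pan-leukocyte antigen CD45.

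The lists that follow were chosen with earlier results of these data known. Among all genes, the share called higher than day 0 in the wound center was 29.7%, 31.0%, 28.9% and 19.2% for days 1, 7, 11 and 21. Of 14 tested rows of T cell receptor signalling genes, 14, 12, 14 and 13 were called higher in the centers of these 4 days, and none was called lower. The median log2 fold change was 3.38 on day 1 and 4.31 on day 11, where the medians of all genes were -0.04 and -0.03. On day 1 the lowest adjusted p were those of LCP2, an adaptor of receptor signalling (4.08), CD28, the costimulatory receptor (6.23), CD8B, the partner chain of CD8A (5.59), and LCK, the kinase of the co-receptors (3.27). All 14 were also called higher in the center on the mean of the 14 days, with a median difference of -0.64, where the median of all genes was -0.01.

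Of 21 further cytotoxic and NK genes, 21, 18, 20 and 16 were called higher in the centers of the same 4 days. On day 11 these were led by FCGR3A, the Fc receptor CD16 (2.90), TYROBP, a signalling adaptor (3.06), CST7 (4.21) and SH2D1A (3.76). FCGR3A and TYROBP are also expressed by myeloid cells. On the mean of the 14 days 19 of the 21 were called higher in the center and none at the edge, where 33.8% and 32.5% of all genes were.

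Of 12 activation and checkpoint rows, 11 were called higher in the day 11 center, with a median log2 fold change of 5.82. Those with the lowest adjusted p were TIGIT (5.85), ICOS (8.38), HAVCR2 (5.11) and PDCD1 (4.29), receptors that appear on T cells after activation. In the day 1 center 9 were called higher and 1, TNFRSF18, lower (-1.80). Genes that went against the rest of their list are named here after their values were seen. For cytokine receptors and ligands of lymphocytes the count was 10 of 12 in the day 11 center, led by IL21R (8.69), IL2RB (4.31), IL10RA (2.92) and IL2RG (4.32). For lymphocyte homing it was 19 of 22, among them SELPLG (4.51) and CCR7 (6.15). On the mean of the 14 days 15 of the 22 homing rows were called higher in the center, and CXCL11, CCL21 and CXCL9 higher at the edge.

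Lineage transcription factors moved in both directions. In the day 11 center 7 of 12 were called higher, among them TOX (3.17), IKZF1 (3.40) and IKZF3 (4.03), and 3 were called lower, among them GATA3 (-4.23). BCL11B (-1.66) was also called lower. In this contrast 28.9% of all genes were called higher and 29.6% lower, so the lower calls did not exceed the share of all genes. GATA3 and BCL11B are also known from keratinocytes. Both were called higher at the edge on the mean of the 14 days.

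Genes of other leukocytes rose along with the members. PTPRC, carried by all leukocytes, was higher than day 0 by 4.06, 3.60, 3.81 and 2.54 in the centers of days 1, 7, 11 and 21, and lower at the edge by -0.94 on the mean of the 14 days. In the same states CD3E was higher than day 0 by 3.45, 3.42, 4.72 and 2.90. On the mean of the 14 days the members differed by -1.11 to -0.51, a range that holds the PTPRC value. The log2 level of CD3E minus that of PTPRC was -3.16 ± 0.39 (SD) on day 0. It was -4.39 ± 0.77 in the day 1 center and -3.62 ± 0.58 at the day 1 edge. The 1 added to CPM lifts low levels of CD3E more than those of PTPRC, most of all on day 0. The change from day 0 is therefore given by the fold changes above and not by these differences of levels. The mean of CD3E minus PTPRC was higher at the edge than in the center, often by less than the SD, on all days except day 13 (-3.45 ± 0.74 and -3.23 ± 0.80). The difference between the courses of CD3E and PTPRC was not tested. All 8 monocyte and macrophage rows were called higher in the center of days 1, 7, 11 and 21 and higher in the center than at the edge on the mean of the days. Their summed log2 level was 7.19 to 8.11 on day 0 and 9.85 to 11.0 in the day 11 center. Of 7 B and plasma cell rows, 6 were called higher in the day 1 and day 11 centers and 4 in those of days 7 and 21. The 6 neutrophil rows were called higher in the centers of days 1, 7 and 11, and on the mean of the days they were divided. CSF3R (-1.52) and both rows of CXCR2 were called higher in the center, and S100A8, S100A9 and S100A12, also known from keratinocytes, higher at the edge. The part of these cells in the members' levels was not tested.

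Markers of resident tissue moved with the location. The 5 keratinocyte rows were called lower than day 0 in the centers of days 1, 7 and 11, none of them on day 21, and all were called higher at the edge on the mean of the days (median 5.73). On day 13 their summed log2 level was 13.7 to 15.5 at the edge and 5.35 to 11.2 in the center. Of 3 adipocyte rows, 3 were called higher in the day 1 center and 0 on day 7, and of 6 skeletal muscle rows 4 and 1. Of the 4 dendritic and Langerhans cell rows, CD207, which defines Langerhans cells, was called lower in the day 1 center (-2.21) and the other 3 higher, of the 3 plasmacytoid dendritic cell rows 2 were called higher, and of the 3 mast cell rows 1. Levels are shares of each library, so a gene's value also moves with the share of other tissue in the biopsy, whose part in the edge against center differences was not tested.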

How the data were processed

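Poly-A RNA of 150 skin and wound samples was sequenced and read counts per gene were made by the authors' sequencing provider. The deposited tables hold whole-number counts and FPKM for 30461 genes in each library, with gene lengths and contig positions as the authors gave them. The aligner, its settings, the genome build and whether strand was used are not given in the sources used here. Symbols were taken from the gene name or, where none was given, from the protein match in the deposited annotation. The rule for the members names genes and uses no measured value, but the members and the gene lists were chosen with earlier results of these data known.

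Counts were fitted with edgeR 4.0.16 (R 4.3.3) by the quasi-likelihood test with TMM scaling, after filterByExpr with a minimum count of 10. P-values were adjusted by Benjamini-Hochberg over all genes within a contrast, and an adjusted p below 0.05 is called. States were compared with day 0 and with the next sampled day of the same animals in 1 fit of all samples, and edge with center in a fit for each day. Fold changes are log2 and, between locations, edge over center. Replicates of a state are wounds of 3 animals. Edge and center samples with the same number share a wound by the labels, and their deviations from the state means correlated positively across genes in 64 of 72 wounds (mean r = 0.259), so the fit with the wound as block is given too. These deviations still hold the level of the animal. Library totals ran from 13133379 to 24895572 counts. Floors cover counting error only. Levels are log2(1 + CPM), with CPM by library totals. Levels are compared between genes only as deposited FPKM, apart from CD3E minus PTPRC, which is compared between states.

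Values are named for the 10 members throughout and for up to 4 genes of each list, those with the lowest adjusted p in the contrast described. Some genes that this rule names are not reported here. For likeness the 3 genes with the highest Pearson r are given. Alternatives were library sizes without TMM, no filter on low counts, DESeq2 1.42.0, replicate blocks, 1 value per animal, fits of fewer or more samples, and fits without single replicates or without 6 libraries. Leaving out 2 center libraries of days 11 and 13 was added after seeing the data. The fits were tested on simulated data with 200 changed genes: for the day 7 center against day 0 90% of 4-fold and 18% of 2-fold changes were found among 16603 genes, and for edge against center on day 21 23% and 0%, among 14980 genes.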

Additional observations from a re-analysis of the deposited data

Results flagged for a closer look

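In 8 of 210 groups of 6 samples 1 sample lay apart from the others by Dixon's criterion, where chance gives about 10.5. In the day 4 edge CD3E was at a log2 level of 1.72 in replicate 1 and at 2.76 to 3.23 in the others. CD2 was at 6.77 in the day 11 center, replicate 3, where the others were at 3.93 to 4.91. This is the library high in both CD3 chains. The day 6 center, replicate 4, from animal 1327, stood apart in GZMA-59390 (4.26, others 2.15 to 2.61) and in PRF1 (4.05, others 2.06 to 2.55). GZMA-59390 was at 3.18 in the day 2 edge, replicate 5 (others 1.28 to 1.95). GZMA-59558 was at 2.57 in the library labelled day 3 center, replicate 4 (others 1.13 to 1.45), whose KRT10 level was that of edge libraries. NKG7 was low in day 0 skin of animal 1328, at 1.81 (others 2.51 to 2.84), and high in the day 13 edge, replicate 4, at 5.85 (others 3.60 to 4.34).

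The difference between edge and center changed with the day, by edgeR's test of the day by location term, for NKG7 (adjusted p = 0.00464), CD3D (adjusted p = 0.00785), CD3E (adjusted p = 0.0178), IL7R (adjusted p = 0.0263) and PRF1 (adjusted p = 0.0470). The same test called 30.8% of all genes. Of the rows named, NKG7 alone was called without the 2 high center libraries (adjusted p = 0.00468), where 30.0% of all genes were. Without replicate 3 and without replicate 6 no member was called, with NKG7 at adjusted p = 0.0603 and 0.0555. Over all genes 16.8% and 25.4% were called in these fits.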

How the results depend on the processing

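Against day 0, 259 of 267 to 274 of 280 member tests were called higher in all alternatives and none lower. With animals as replicate block 265 were called, and without single replicates 264 to 273. Over all genes and in either direction, the main fit called 45.1% of the tests against day 0. That share was 39.2% with animals as replicate block, 38.7% to 43.6% without single replicates, and 30.2% to 51.4% over all alternatives. For edge against center the count of 37 tests higher in the center became 57 with the wound as replicate block, which kept 36 of the 37 calls, 18 with 1 value per animal, 49 with DESeq2 and 19 to 28 without single replicates. The lowest values were 23 without replicate 2 and 19 without replicate 6, where 99 tests remained. Over all genes the main fits called 23.5% of these tests in either direction. That share was 26.2% with the wound block, 18.3% with 1 value per animal, 28.3% with DESeq2 and 17.7% to 26.8% without single replicates. No alternative called a member higher at the edge, and all 10 rows were called higher in the center on the mean of the 14 days in every alternative. The count of 5 rows with a day by location term became 1 with 1 value per animal, 1 without both high center libraries, 3 without either one and 0 to 5 without single replicates (0 without replicate 3 and without replicate 6). DESeq2 was not run for this term. Over all genes the main fit called the term for 30.8%, against 23.5% with 1 value per animal. The share was 30.0% without both high center libraries, 30.3% and 30.5% without that of day 11 or day 13, and 16.8% to 30.1% without single replicates. Between successive days the count higher on the later day was 5 with DESeq2, 1 with animals as replicate block, 1 without the high day 13 center library and 0 to 2 without single replicates. The count lower on the later day was 2 without the 6 libraries and 0 to 2 without single replicates. Over all genes and in either direction, DESeq2 called 5.01% of these tests and the fit with animals as replicate block 4.47%. It was 3.86% without the 6 libraries, 3.97% without the high day 13 center library and 2.27% to 3.98% without single replicates. The causes were not tested. Of 103 edge against center tests that were not called, 26 changed sign under at least 1 alternative. Scaling by library size without TMM moved the median of all genes against day 0 by -0.26 to 0.17. States of 3 replicates limit what can be seen: in the simulation of edge against center on day 21, 23% of 4-fold changes were found.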
